A study of Mus musculus with 8 samples.

Results

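The 6 genes described here encode subunits of the NADPH oxidase of phagocytes: Cybb, Cyba, Ncf1, Ncf4, Rac1 and Rac2. They were taken by name, with every probe set annotated to 1 of them, which gave 13 probe sets of 45037 tested and 6 genes of 18193. Their levels were set side by side in peritoneal macrophages that lack the mineralocorticoid receptor and in floxed controls, each with and without corticosterone, the main glucocorticoid of mice and a ligand of that receptor as well.

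The oxidase carries electrons from NADPH across a membrane to oxygen and so makes superoxide, which phagocytes use against microbes. Cybb (gp91phox) holds the haems and the flavin that pass the electrons, and Cyba (p22phox) holds Cybb stable in the membrane and docks the cytosolic subunits. In resting cells Ncf1 (p47phox) and Ncf4 (p40phox) wait in the cytosol. Phosphorylated Ncf1 then carries the cytosolic complex to Cyba, Ncf4 binds the phosphoinositide of phagosomes, and a GTP-bound Rac protein, Rac1 or Rac2, completes the active enzyme. Mineralocorticoid signalling has been tied to oxidase-driven oxidative stress in vessels and heart.

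All cells were peritoneal macrophages of male C57BL6/J mice, drawn 4 days after an injection of 3% thioglycolate and selected by adherence in serum-containing medium. There were 4 groups of 2 arrays. Knockout cells with corticosterone and knockout cells without it had the genotype MR fl / fl, LysM cre. Control cells with corticosterone and control cells without it had the genotype MR fl / fl, and their labels list no Cre. Corticosterone was given at 1 µM for 24 h. Both genotypes carry the floxed receptor gene Nr3c2, and LysM cre deletes it in cells that use the lysozyme promoter, which macrophages and neutrophils share. Per the labels, material from triplicate experiments was pooled into each sample, so the p-values measure the spread between pools, which may be technical.

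Promoters were read to show the sequence at which transcription of the members starts, because Cybb and Ncf1 moved in opposite directions with corticosterone. RefSeq entries were matched for 3 of the 6 members, Cybb, Cyba and Ncf1. In the 2 sequences below, 250 bases that lie just before the start site, capitals mark the motif found.
Cybb, chrX:9469325-9469574, minus strand, GRCm38.p6: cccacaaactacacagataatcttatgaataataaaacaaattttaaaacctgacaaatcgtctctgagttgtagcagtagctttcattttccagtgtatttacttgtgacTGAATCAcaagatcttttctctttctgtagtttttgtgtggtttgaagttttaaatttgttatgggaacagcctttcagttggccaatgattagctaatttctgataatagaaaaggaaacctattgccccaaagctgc
Ncf1, chr5:134229626-134229875, minus strand, GRCm38.p6: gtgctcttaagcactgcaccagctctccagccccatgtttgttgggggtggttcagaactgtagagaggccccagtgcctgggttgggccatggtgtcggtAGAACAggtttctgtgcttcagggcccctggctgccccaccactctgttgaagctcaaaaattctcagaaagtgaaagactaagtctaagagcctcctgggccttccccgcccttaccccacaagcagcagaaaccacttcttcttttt
The 4 motifs were searched on both strands. The AP-1 site was searched loosely, as TGANTCA with any base allowed in the middle. This string lay in the Cybb window as TGAATCA, starting 139 bases before the start. It lay in 6.75% of 32851 mouse promoters of that length. The single arm, or hexamer, of the DNA site of the glucocorticoid and mineralocorticoid receptors, AGAACA, lay in the Ncf1 window 149 bases before the start and in 16.1% of promoters. The full receptor site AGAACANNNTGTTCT, which contains that hexamer, was found in none of the 3 windows (3 of all promoters held it). The string GAGGAA, searched for PU.1, was in none of them either, and in 23.3% of promoters. Other forms of the PU.1 site were not searched, so its absence does not show that these windows lack one. The Cyba window, at chr8:122432941-122433190 on the minus strand, held none of the 4. A match is a string of letters only, and no binding was measured.

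Replicate 2 of the untreated control cells stood apart from the other 7 arrays. Its median correlation with the others was 0.919, against 0.994 to 0.995 for each of the rest. The 3' probes of the Actb control exceeded its 5' probes by 2.18 log2 units on that array and by 0.41 to 0.62 on the others; this gap is a measure of how far the RNA or cDNA was intact. For that correlation and that gap, results are from a limma fit of 7 arrays, and the fit of all 8 stands beside them. The array left out also lay below all other arrays for 12 of the 13 member probe sets (92.3%). That share was 41.4% of all probe sets and 59.9% of those at or above the median level. These member levels were not a ground for leaving it out, but the calls below depend on that choice. In the 7-array fit untreated control cells are 1 array, and the spread of the remaining groups stands in for its own. A probe set was called at an adjusted p under 0.05, by Benjamini-Hochberg over all 45037. Levels and differences are in log2 units, and levels of different probe sets cannot be compared with each other.

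The targeted gene was measured by Nr3c2 1435991_at. It read 5.11 and 5.47 in knockout cells with corticosterone and 5.54 and 5.82 in untreated knockout cells, against 6.13 and 6.39 in control cells with corticosterone and 6.39 and 8.46 in untreated control cells, the last on the array that stands apart. Knockout cells were below control cells on every array. The difference with corticosterone was -0.97 (SE 0.17, adjusted p = 0.037 with 7 arrays and 1 with 8), and without it -0.71 (SE 0.21, adjusted p = 0.19 and 0.52). The position of these probes relative to the deleted exons is not known here, so the partial drop measures neither the share of cells deleted nor the receptor left.

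With corticosterone Ncf4, Rac2 and Cybb fell and Ncf1 rose in cells of both genotypes, while Cyba and Rac1 were not called. The changes were modest: with corticosterone Ncf4 stood at 0.642 of its untreated level in knockout cells and at 0.664 in control cells. In knockout cells 7 of the 13 member probe sets were called, 2 higher and 5 lower, while 9.14% of all probe sets were called, 4.33% higher and 4.82% lower. In control cells 6 were called, 1 higher and 5 lower, against 6.79% of all, 3.19% higher and 3.60% lower. Among the 22519 probe sets at or above the median level, which hold all the members but 1 Rac1 probe set, 16.4% were called in knockout cells and 12.4% in control cells. The median member difference was -0.17 in knockout cells and -0.17 in control cells, beside -0.006 and 4e-04 over all probe sets. With all 8 arrays no member was called, when 0.0577% of all probe sets were called in knockout and 0.0622% in control cells, and at an unadjusted p under 0.05 the members numbered 0 and 2 of 13 (3.65% and 8.18% of all probe sets). With 7 arrays and no trend of the variance on the level, 1 member was called in each genotype, Ncf4 (adjusted p = 0.010 in knockout and 0.031 in control cells). Both corticosterone contrasts use different arrays. In pooled cultures a lower level in each cell and fewer cells of the type that makes the RNA cannot be told apart.

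**Figure D1:**
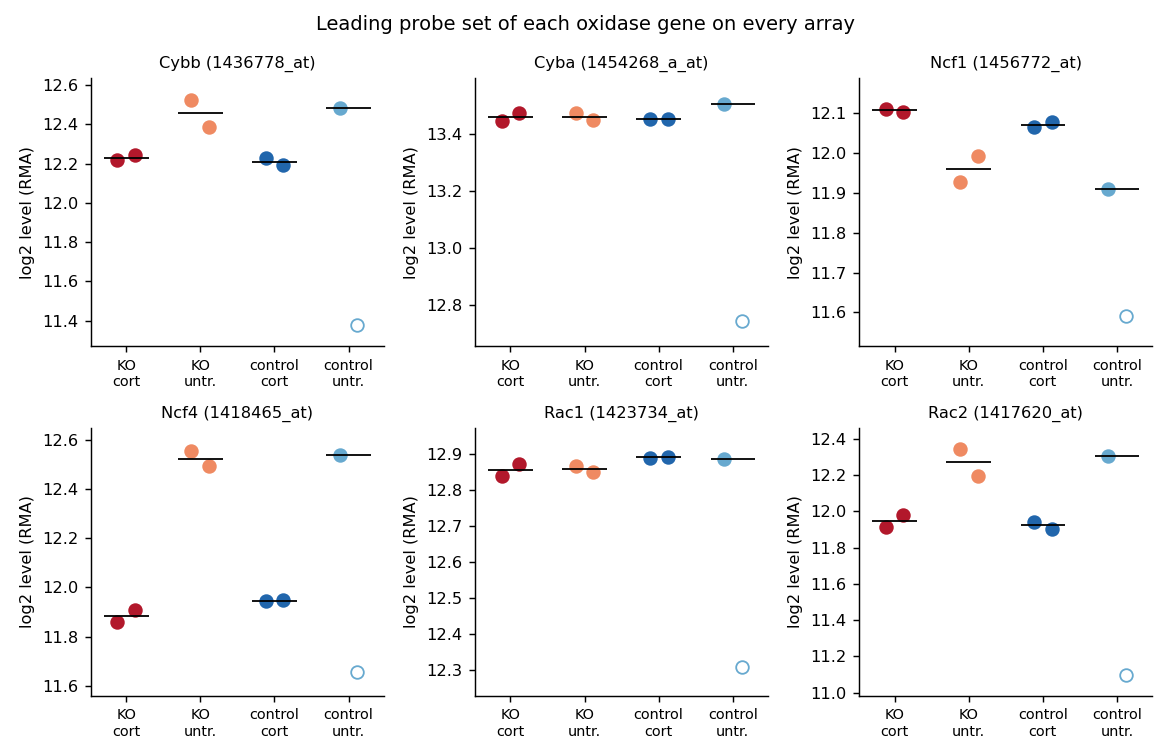
Level of the leading probe set of each of the 6 genes, the one with the highest mean, on each of the 8 arrays (y axis, log2; panels have their own range), in knockout cells with corticosterone, knockout untreated, control with corticosterone and control untreated; bars are group means over the 7 arrays fitted, and the hollow circle is control untreated replicate 2. Ncf4, Rac2 and Cybb sit lower, and Ncf1 higher, with corticosterone in both genotypes once that circle is left aside.

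Among the membrane subunits, Cybb fell and its partner Cyba was not called. The leading Cybb probe set, 1436778_at, read 12.22 and 12.24 in knockout cells with corticosterone, against 12.53 and 12.39 in untreated knockout cells. In control cells it read 12.23 and 12.19 with corticosterone, against 12.48 and 11.38 untreated. All 4 arrays with corticosterone lay below the 3 untreated arrays of good quality, and above the array that stands apart. The difference was -0.23 in knockout cells (SE 0.042, adjusted p = 0.0074) and -0.27 in control cells (SE 0.052, adjusted p = 0.011). The knockout call was lost without knockout corticosterone replicate 1 (adjusted p = 0.070), and the control call without either control array with corticosterone (0.055 and 0.091). Probe set 1436779_at read 11.81 and 11.83 in knockout cells with corticosterone, against 12.05 and 12.03 untreated, and in control cells 11.75 and 11.76, against 12.04 and 11.00. The order of the arrays was the same, and the difference was -0.22 in knockout cells (SE 0.029, adjusted p = 0.00092) and -0.29 in control cells (SE 0.035, adjusted p = 0.00082).

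Probe set 1422978_at gave the largest Cybb difference in knockout cells. It read 10.70 and 10.80 in knockout cells with corticosterone, against 11.29 and 11.14 without. In control cells the values were 10.87 and 10.77 with corticosterone, against 11.16 and 9.03 without. The 4 arrays with corticosterone were again below the 3 good untreated ones. The fall was -0.47 in knockout cells (SE 0.059, adjusted p = 0.00067) and -0.34 in control cells (SE 0.072, adjusted p = 0.020). The control call was lost without either control array with corticosterone (adjusted p = 0.051 and 0.15). With 8 arrays the sign in control cells turned for all 3 Cybb probe sets, with differences of 0.28, 0.23 and 0.73 and adjusted p of 0.52 to 0.66.

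Cyba has 1 probe set, 1454268_a_at. It read 13.45 and 13.47 in knockout cells with corticosterone, against 13.47 and 13.45 untreated, and in control cells 13.45 and 13.45 with corticosterone, against 13.51 and 12.75 untreated. The groups overlap in knockout cells, and the 7 good arrays lie within 0.062. The difference was -0.0016 in knockout cells (95% interval -0.048 to 0.045, adjusted p = 0.98) and -0.056 in control cells (-0.11 to 0.0009, adjusted p = 0.29). With 8 arrays the control difference was 0.33, with its sign turned (SE 0.23, adjusted p = 0.45).

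The cytosolic subunits moved apart: Ncf4 fell and Ncf1 rose. Ncf4 1418465_at, the only probe set of the gene, read 11.86 and 11.91 in knockout cells with corticosterone, against 12.55 and 12.49 in untreated knockout cells. In control cells it read 11.94 and 11.95 with corticosterone, against 12.54 and 11.66 untreated. The order of the groups on the 7 arrays was knockout with corticosterone, control with corticosterone, then both untreated groups together, with a gap of over 0.5 between the treated and the untreated arrays. Ncf4 fell by 0.64 in knockout cells (SE 0.031, 95% interval -0.71 to -0.57, adjusted p = 1.3e-06) and by 0.59 in control cells (SE 0.038, -0.68 to -0.51, adjusted p = 1.4e-05). It was the member with the largest difference in each genotype among the leading probe sets, and no fit that leaves out a further array removed either call. With 8 arrays the adjusted p was 1 in knockout cells and 0.74 in control cells, where the difference was -0.15.

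The leading Ncf1 probe set, 1456772_at, read 12.11 and 12.10 in knockout cells with corticosterone, against 11.93 and 11.99 untreated. In control cells it read 12.07 and 12.08 with corticosterone, against 11.91 and 11.59 untreated. Arrays with corticosterone were the higher in both genotypes. The rise was 0.15 in knockout cells (SE 0.031, adjusted p = 0.014) and 0.16 in control cells (SE 0.038, adjusted p = 0.031). The knockout call was lost without either knockout array with corticosterone (adjusted p = 0.11 and 0.11), and the control call without any 1 array with corticosterone, of either genotype (0.075 to 0.15).

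The other Ncf1 probe sets ran the same way. Probe set 1451767_at read 10.66 and 10.70 in knockout cells with corticosterone, against 10.43 and 10.37 untreated, and in control cells 10.65 and 10.69 with corticosterone, against 10.48 and 8.66 untreated. It rose in knockout cells by 0.28 (SE 0.043, adjusted p = 0.0025) and was 0.19 higher in control cells without passing the test (SE 0.053, adjusted p = 0.072). Probe set 1425609_at read 7.91 and 8.12 in knockout cells with corticosterone, against 7.77 and 7.40 untreated, and in control cells 7.92 and 7.95, against 7.62 and 3.83. It was 0.43 higher in knockout cells and 0.32 higher in control cells, not called in either (adjusted p = 0.069 and 0.32). In the 8-array fit the control differences of the 3 Ncf1 probe sets were 0.32, 1.10 and 2.22, each with an adjusted p of 0.45. Among the member probe sets, 1425609_at is where the array that stands apart was farthest from its replicate, at -3.79. For the leading Ncf1 probe set that gap was -0.32, the smallest among the leading probe sets.

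Of the GTPases, Rac2, which is found mainly in blood cells, fell, and the widely expressed Rac1 was not called. Rac2 1417620_at read 11.91 and 11.98 in knockout cells with corticosterone, against 12.35 and 12.20 untreated. In control cells it read 11.94 and 11.90 with corticosterone, against 12.31 and 11.09 untreated. The 4 arrays with corticosterone lay below the 3 good untreated arrays. Rac2 fell by 0.33 in knockout cells (SE 0.047, adjusted p = 0.0016) and by 0.38 in control cells (SE 0.057, adjusted p = 0.0027). With 8 arrays the control difference was 0.22, with its sign turned (adjusted p = 0.73). Probe set 1440208_at read 8.85 and 8.91 in knockout cells with corticosterone, against 9.05 and 9.12 untreated, and in control cells 8.87 and 8.86, against 9.03 and 6.89. It differed by -0.21 in knockout cells and -0.17 in control cells, with no overlap between the arrays of good quality but no call in either (adjusted p = 0.078 and 0.30). With 8 arrays its control difference was 0.91, the sign turned here too (adjusted p = 0.46).

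Rac1 1423734_at read 12.84 and 12.87 in knockout cells with corticosterone, against 12.87 and 12.85 untreated, and in control cells 12.89 and 12.89 with corticosterone, against 12.88 and 12.31 untreated. The 7 good arrays spanned 0.053. The difference was -0.0041 in knockout cells (95% interval -0.056 to 0.048) and 0.0066 in control cells (-0.057 to 0.070), where 8 arrays gave 0.30 (SE 0.17). Probe set 1451086_s_at, whose name marks probes shared between transcripts, read 12.58 and 12.52 in knockout cells with corticosterone, against 12.51 and 12.53 untreated, and in control cells 12.57 and 12.53, against 12.60 and 12.48. It differed by 0.034 in knockout cells and -0.051 in control cells (adjusted p = 0.59 and 0.53). Probe set 1437674_at lay between 2.44 and 3.00 on all 8 arrays, near the bottom of the scale, and was not called.

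**Figure D2:**
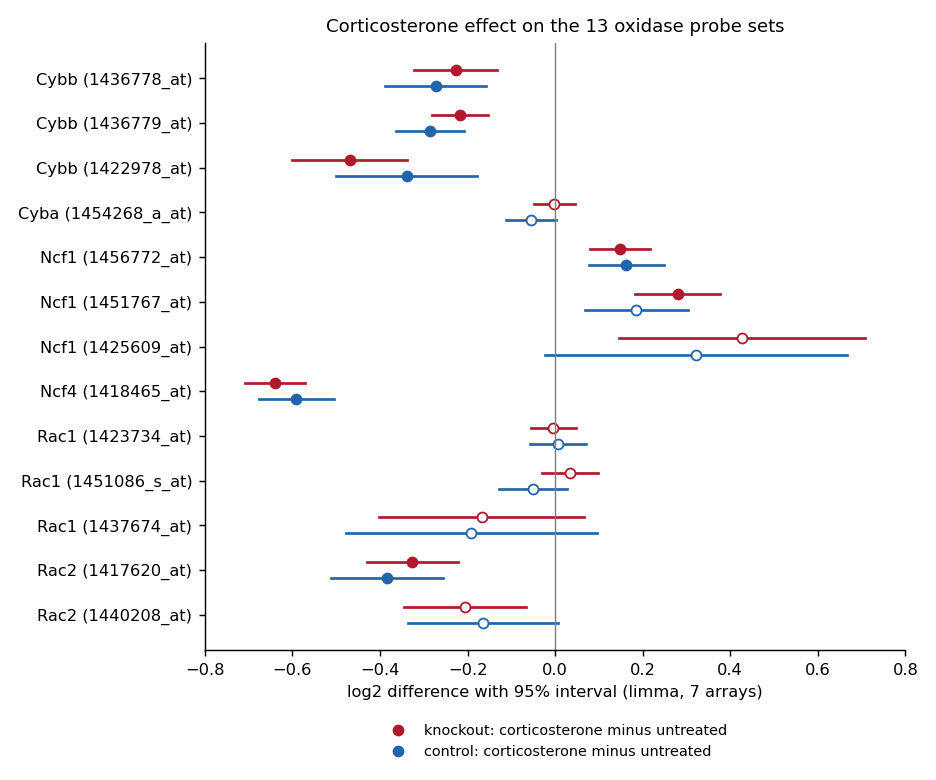
Difference with corticosterone minus without (x axis, log2) for each of the 13 member probe sets in knockout and in control cells, with 95% intervals from the limma fit of 7 arrays; filled points were called at an adjusted p under 0.05. The Cybb, Ncf4 and Rac2 points lie left of 0, the Ncf1 points right of it, and the leading Cyba and Rac1 points at about 0.

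Knockout cells were compared with control cells next. By their labels they differ in LysM cre as well, so an effect of Cre itself cannot be told apart from loss of the receptor. No member probe set was called between knockout and control cells, with corticosterone (0.795% of all probe sets called) or without it (0.977% called). At an unadjusted p under 0.05 there were 0 with corticosterone and 1 without it, Rac1 1451086_s_at, at -0.082 (adjusted p = 0.37), while 8.03% and 12.3% of all probe sets passed that threshold. With all 8 arrays 0.00% of all probe sets were called in either contrast. Knockout minus control with corticosterone ran from -0.062 for Ncf4 to 0.036 for Ncf1 among the leading probe sets, and without it from -0.046 for Cyba to 0.051 for Ncf1. The widest 95% bounds over the 6 leading probe sets were -0.13 and 0.13 with corticosterone and -0.17 and 0.14 without it. Missing the test does not show that the genotypes were alike, and these bounds hold for the 7 arrays only. With all 8 arrays knockout minus control without corticosterone was 0.53 for Cybb (SE 0.33), 0.57 for Rac2 (SE 0.36), 0.43 for Ncf4 (SE 0.26), 0.34 for Cyba (SE 0.23), 0.26 for Rac1 (SE 0.17) and 0.21 for Ncf1 (SE 0.11) in the leading probe sets, each beyond those bounds, with the sign turned for all but Ncf1 and with an adjusted p of 0.52. The untreated genotype difference depended on whether control untreated replicate 2 was included.

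For Ncf4 the difference with corticosterone was -0.062 (95% interval -0.13 to 0.0074, adjusted p = 0.68). Both knockout arrays lay below both control arrays there for 2 of the 13 member probe sets, Ncf4 among them, and above both for 2. For Cybb the difference with corticosterone was 0.020 (-0.074 to 0.11) and without it -0.025 (-0.14 to 0.090). For Rac2 it was 0.022 (-0.083 to 0.13) with and -0.037 (-0.17 to 0.092) without.

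**Figure D3:**
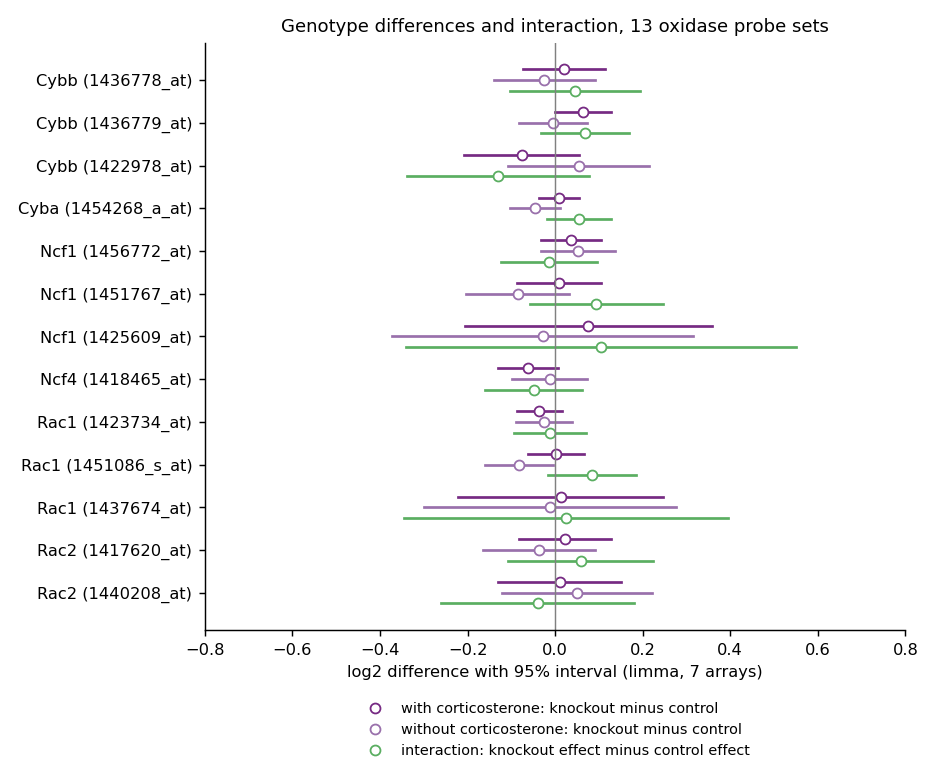
Difference knockout minus control (x axis, log2), with and without corticosterone, and the interaction, for each of the 13 member probe sets. The interaction is the corticosterone difference in knockout cells minus that in control cells. Bars are 95% intervals from the limma fit of 7 arrays, and hollow points were not called. Every point is hollow. The genotype differences lie between -0.086 and 0.076, and the interactions between -0.13 and 0.10.

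The interaction, the corticosterone difference in knockout cells minus that in control cells, was called for no member (0.00888% of all probe sets with 7 arrays, 0.00% with 8). It was -0.049 for Ncf4 (95% interval -0.16 to 0.061), 0.045 for Cybb (-0.10 to 0.19), 0.059 for Rac2 (-0.11 to 0.22) and -0.015 for Ncf1 (-0.12 to 0.095). The smallest adjusted p over the 13 was 0.90. Over all 8 arrays the interaction was -0.49 for Ncf4 (SE 0.37), -0.51 for Cybb (SE 0.46), -0.55 for Rac2 (SE 0.51) and -0.17 for Ncf1 (SE 0.16), each with an adjusted p of 0.75, outside the 7-array intervals and with the sign turned for Cybb and Rac2. The counts of called probe sets, 7 in knockout and 6 in control cells, are no test of that difference.

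Ncf4 varied enough over the 7 arrays, by 0.69, for the genes with the most similar profile to be named; for the other members the leading probe set varied by less than 0.5. The closest 3 by Pearson correlation were Prkcd (0.999), which encodes a protein kinase C, Gngt2 (0.999), a G protein subunit, and Vegfa (0.997), a vascular growth factor. With corticosterone Gngt2 was lower by 0.92 in knockout cells and 0.84 in control cells, and Vegfa by 1.00 and 0.90. The 7 arrays fall into treated and untreated ones, so these correlations describe that split.

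Other genes of the pathway were read from 5 lists. Beyond the members, the list of other oxidases and their partners had 7 of 12 genes measured. Of these, 1 fell in each genotype: Hvcn1, the voltage-gated proton channel that offsets the charge moved by the oxidase. Hvcn1 read 10.40 and 10.47 in knockout cells with corticosterone, against 11.87 and 11.85 untreated, and in control cells 10.43 and 10.37, against 11.86 and 11.22. It fell by 1.42 in knockout cells (SE 0.040, adjusted p = 4.0e-08) and by 1.46 in control cells (SE 0.049, adjusted p = 2.1e-07), which is more than any member. Cybc1, the chaperone of the Cybb and Cyba pair, was 0.12 higher in each genotype without passing the test (adjusted p = 0.20 and 0.34).

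Of the Rac regulators, 15 of 16 were measured, and 2 rose and 5 fell in each genotype. Arhgap25, which turns Rac off, fell by 0.52 in knockout cells (adjusted p = 3.2e-06) and by 0.57 in control cells (adjusted p = 1.1e-05). Dock2, an exchange factor that turns Rac on, fell by 0.31 and 0.37 in the same order (adjusted p = 0.00019 and 0.00034). Elmo1, which works with exchange factors of the Dock family, rose by 0.36 and 0.50 (adjusted p = 0.00062 and 0.00038). Rac3, a further Rac GTPase, rose by 0.98 and 0.95 (adjusted p = 0.00065 and 0.0038), so with 7 arrays Rac2 and Rac3 moved in opposite directions.

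Of the kinases and lipid enzymes that switch the oxidase on, 11 of 13 were measured; 1 rose and 4 fell in knockout cells, and 0 rose and 4 fell in control cells. The kinases Prkcb and Prkcd, which phosphorylate Ncf1, fell by 0.71 and 0.43 in knockout cells (adjusted p = 1.4e-06 and 4.9e-05) and by 0.73 and 0.41 in control cells (7.4e-06 and 0.00040). Pla2g4a, the phospholipase that frees arachidonic acid, fell by 0.46 in knockout cells (adjusted p = 0.0013) and by 0.40 in control cells (adjusted p = 0.012). Pik3cd, a lipid kinase of leukocytes, fell by 0.37 and 0.44 (adjusted p = 0.0028 and 0.0045), while its other, dimmer probe sets ran from -0.23 to 0.22.

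Of the transcription factors known for oxidase genes, 6 of 8 were measured. In knockout cells 0 rose and 3 fell, and in control cells 0 rose and 2 fell. Irf1 fell by 0.59 in knockout and 0.55 in control cells (adjusted p = 6.4e-05 and 0.00056), and Irf8 by 0.23 and 0.24 (adjusted p = 0.0013 and 0.0053); both are interferon regulatory factors. Spi1, which encodes PU.1, fell by 0.19 in knockout cells (adjusted p = 0.0083) and was at -0.11 in control cells (adjusted p = 0.20, not called). The difference between the genotypes was called for none of the 6.

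Of the genes that remove superoxide and peroxide, 17 of 20 were measured; 4 rose and 4 fell in knockout cells, and 2 rose and 3 fell in control cells. Gpx3, a secreted glutathione peroxidase, read 11.22 and 11.30 in knockout cells with corticosterone, against 9.25 and 9.30 untreated. In control cells it read 10.29 and 10.36 with corticosterone, against 8.51 and 9.42 untreated. It rose by 1.99 in knockout cells (SE 0.051, adjusted p = 2.9e-08) and by 1.82 in control cells (SE 0.063, adjusted p = 2.7e-07).

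Gpx3 and Prdx2 were the only genes of these 5 lists called between genotypes with 7 arrays. Gpx3 was 0.93 higher in knockout than in control cells with corticosterone (adjusted p = 1.5e-05) and 0.77 higher without it (adjusted p = 0.00033), with an interaction of 0.17 (adjusted p = 0.89). With 8 arrays the adjusted p was 1 with corticosterone and 0.56 without it, where the difference was 0.31. The call without corticosterone also needed the variance trend (adjusted p = 0.076 without it) and all 4 groups in the fit (0.058 from the compared arrays alone). Prdx2, a cytosolic peroxiredoxin named after its values were seen, was lower in knockout cells by -0.17 with corticosterone and by -0.21 without it (adjusted p = 0.048 and 0.040). Leaving out any 1 array with corticosterone took its call away. The thioredoxin reductase gene Txnrd1 fell with corticosterone by 0.21 in knockout and 0.22 in control cells, Nqo1 (a quinone reductase) by 1.18 and 1.10, and Gclm, a subunit of the glutathione-making enzyme, by 0.37 and 0.31, all called in both genotypes. With 8 arrays 0 genes of the 5 lists were called in any of the 5 comparisons.

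**Figure D4:**
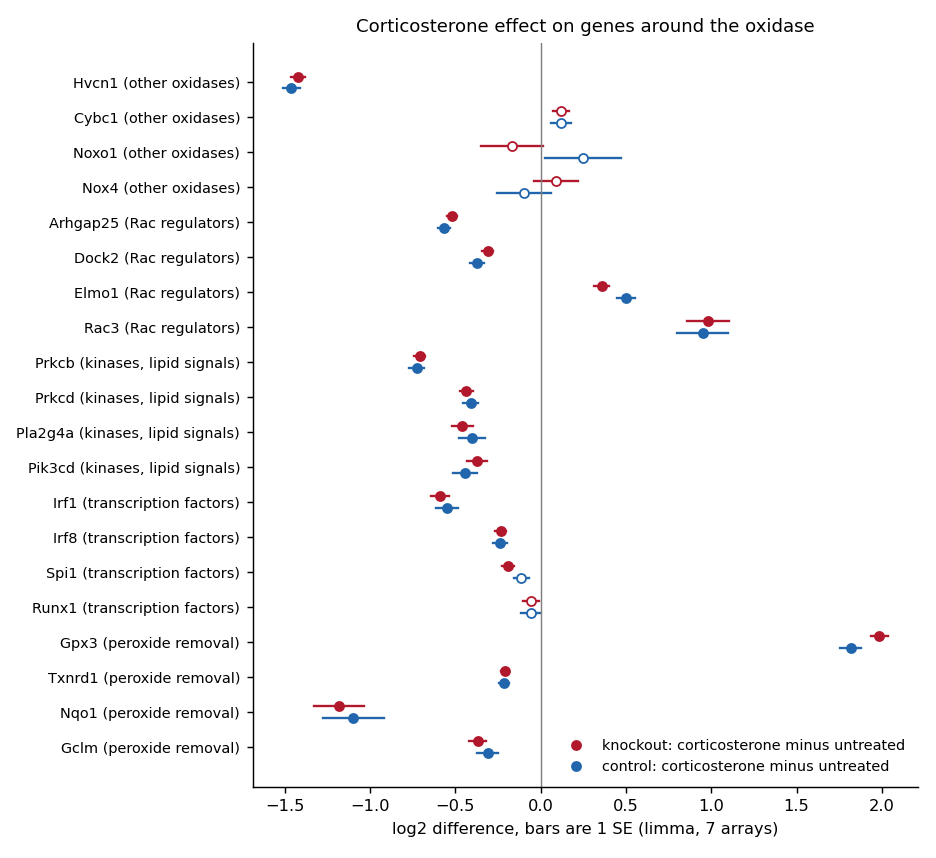
Corticosterone difference (x axis, log2) in knockout and control cells for the 4 genes named from each of the 5 pathway lists, with bars of 1 SE from the limma fit of 7 arrays; filled points were called at an adjusted p under 0.05. Gpx3 and Rac3 lie right of 0, and Hvcn1 and Nqo1 are farthest left.

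The macrophage label was checked against its markers. Lyz2 (lysozyme) read 13.58 to 13.78 and Csf1r, the receptor of the macrophage growth factor, 13.52 to 13.59 over the 8 arrays. Of 8 macrophage markers measured, 4 rose and 1 fell with corticosterone in each genotype. Markers of other cells moved as well. The mean level of 7 of 8 B cell markers was 6.98 and 7.08 in knockout cells with corticosterone, against 8.32 and 8.23 untreated, and in control cells 6.93 and 7.02, against 7.998 and 7.03. Of these 7, 6 fell in each genotype; Pax5, a defining B cell factor, lay at 3.27 to 3.58 on every array. The mean of 8 of 10 T and NK cell markers was 4.73 and 4.76 in knockout cells with corticosterone, against 6.12 and 6.04, and in control cells 4.89 and 4.88, against 5.89 and 5.74. Of these 8, 5 fell in each genotype.

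The mean of 9 of 10 markers of dividing cells was 9.05 and 8.85 in knockout cells with corticosterone, against 9.56 and 9.64, and in control cells 8.43 and 8.41, against 9.10 and 10.77. Of the 9, 9 fell in knockout and 8 in control cells, and between genotypes 7 were higher in knockout cells with corticosterone and 4 without it. Neutrophil markers, 10 of 12 measured, gave means of 5.63 to 5.81 over the knockout arrays and 5.68 to 5.88 over the control arrays. Of these, 1 rose and 1 fell with corticosterone in each genotype. The list was uneven. The granule genes Mpo and Elane lay near the bottom of the scale, at 3.12 to 3.60 and 2.72 to 3.15 over the 8 arrays. Camp, Ltf, Ngp and Cxcr2 lay between 2.90 and 5.17. S100a8 lay at 9.07 to 10.90, Mmp8 at 8.95 to 10.36 and Csf3r at 8.27 to 9.14. S100a9 read 4.96 to 5.78 on 7 arrays and 9.65 on the array that stands apart, a rise that the mean of the list largely hides. Of 5 dendritic cell markers measured, 1 rose and 2 fell with corticosterone in knockout cells, and 0 rose and 2 fell in control cells. Cd209a among them was at -2.097 in knockout and -2.268 in control cells. Of 5 eosinophil markers, 2 fell in knockout and 1 in control cells. Of 8 mast cell and basophil markers, 3 rose in each genotype, with Fcer1a at 1.67 in knockout and 1.49 in control cells. Of 10 mesothelial and fibroblast markers, 2 rose in knockout cells and 1 fell in control cells. With 8 arrays 0 markers of these lists were called in either corticosterone contrast. The mesothelial and fibroblast mean was 6.93 to 7.33 on 7 arrays and 8.46 on the array that stands apart. B cells and neutrophils also make oxidase subunits, and lymphocytes make Rac2; the part of these cells in the members' changes was not tested.

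**Figure D5:**
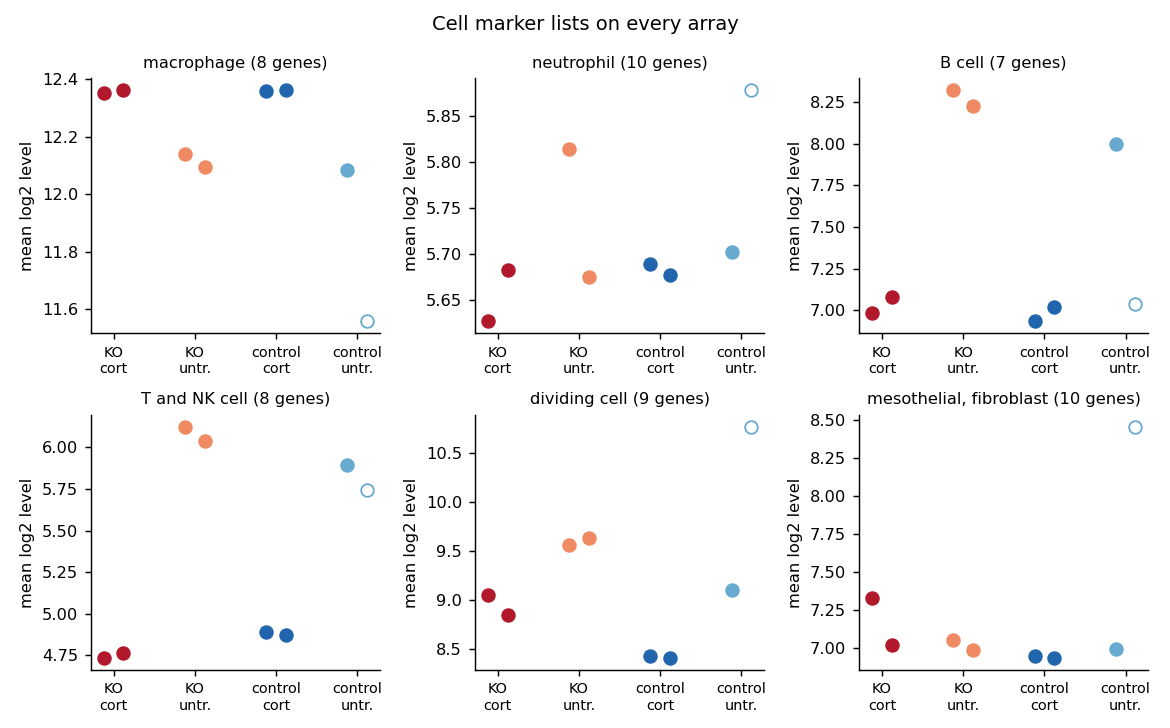
Mean log2 level (y axis; panels have their own range) of 6 of the 9 marker lists on each of the 8 arrays by group; the hollow circle is control untreated replicate 2. B cell and T and NK cell means are lower with corticosterone in both genotypes, and the neutrophil mean stays between 5.63 and 5.88.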

How the data were processed

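RNA from 8 pools of macrophages was read on Affymetrix arrays. The deposited values are log2 levels per probe set, made by the authors with RMA in R 2.7, per the submitters' processing notes; RMA evens out the distributions of the arrays, so a change in total RNA leaves no trace. Labelling used the NuGEN Ovation system, per the labels' protocols. Of 45101 probe sets 64 controls were left out, 34958 had 1 gene in the platform annotation, 932 several, and 9147 were not named here. Depth has no count here; the number of arrays limits the precision.

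Levels were fitted with limma 3.58.1 in R 4.3.3 (1 coefficient per group, variance trend, 4 groups sharing 1 spread), with 3 residual degrees of freedom on 7 arrays and 4 on 8. The fit was also run on simulated data with independent normal noise and changes added to knockout cells with corticosterone. That run checked only the corticosterone contrast in knockout cells and did not model a degraded array. Replicate numbers were not used to pair samples in the main fit. The 6 correlations of replicate differences between groups ran from -0.23 to 0.32, and not all exceeded 0.1. Those with untreated control cells rest on the array that stands apart, so they cannot show that samples were unpaired. The largest correlation between 2 arrays was 0.998 and no columns were identical.

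The members and the lists were chosen with earlier results of these data known, as was leaving out 1 array. All member probe sets are named, with the 4 genes of smallest p in knockout cells from each pathway list and the 3 genes most like a member whose leading probe set varied by at least 0.5; the leading probe set has the highest mean. Alternatives were the 8 arrays, array weights, a replicate block, no variance trend, only the arrays compared, 1 probe set per gene, no dim probe sets, median centring, quantile normalization and leaving out each array.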

Additional observations from a re-analysis of the deposited data

How the results depend on the processing

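The main limit is control untreated replicate 2. With it in the fit, 0 member probe sets were called in either corticosterone contrast, against 7 and 6 without it, and the difference in control cells turned to 0.28, 0.23 and 0.73 for Cybb, 0.22 and 0.91 for Rac2, 0.072 for Pla2g4a, 0.051 for Pik3cd, 0.32 for Irf1 and 0.37 for Irf8; array weights and the replicate block on 8 arrays gave the same values. Knockout minus control without corticosterone likewise turned to 0.024 for Csf2rb2 and, among leading member probe sets, to 0.53 for Cybb, 0.57 for Rac2, 0.43 for Ncf4, 0.34 for Cyba and 0.26 for Rac1, none of them called; the interaction turned to -0.51 for Cybb and -0.55 for Rac2. Array weights called 5 in knockout and 0 in control cells. With 2 arrays per group, both arrays of a group got the same weight, 0.068 for each untreated control array. This setting therefore could not single out control untreated replicate 2. The replicate block on 7 arrays, where no pairing by number is known, called 7 in knockout cells. In control cells it gave -0.31 for Cybb 1422978_at and 0.15 for Ncf1 1456772_at, the members whose calls it took away. On 8 arrays it called 0 and 0. Without the variance trend 1 was called in each, Ncf4. With 1 probe set per gene 4 and 4 of 6 genes were called, as among the leading probe sets of the main fit. Leaving out 1 more array gave 5 to 8 in knockout cells and 3 to 7 in control cells, with the lowest counts when a treated array was left out. Other settings kept the counts within 1.5 times. The genotype and interaction counts were 0 in every setting run. Leaving out control untreated replicate 1 as well leaves no such cells and gave no value. With no detection calls, signal over background is unknown.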

Other observations

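Ncf4 and Rac2 lie on chromosome 15 with 10 protein-coding genes between them in the gene table of assembly GRCm38.p6, all 10 measured. These neighbours were looked at after the members' values were seen, and no test of the group was made. With corticosterone 4 of the 10 fell in knockout cells and 3 in control cells, and 0 rose in either. Of all probe sets, 4.82% fell and 4.33% rose in knockout cells, and 3.60% fell and 3.19% rose in control cells. Csf2rb and Csf2rb2, which encode beta chains of cytokine receptors, fell by 0.20 and 0.31 in knockout cells (adjusted p = 0.0012 and 6.7e-05) and by 0.27 and 0.32 in control cells (adjusted p = 0.00086 and 0.00035). Tst, a mitochondrial sulfurtransferase, fell by 0.80 in knockout cells (adjusted p = 0.00016) and by 1.05 in control cells (adjusted p = 0.00015). Il2rb, a receptor chain of T and NK cells, was at a mean level of 3.91 and fell by 0.64 in knockout cells (adjusted p = 0.027); it was at -0.34 in control cells (adjusted p = 0.39). With 8 arrays none of these 4 genes was called in a corticosterone contrast.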
